A study of Rattus norvegicus with 21 samples.

Results

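The lysosomal genes described here are 40 genes whose products digest macromolecules inside the lysosome, span its membrane, acidify it or regulate its content. They were followed in the dentate gyrus, the hippocampal subfield of granule neurons, on Affymetrix rat Gene ST arrays. The genes were listed by symbol, and a gene was read from a probe set annotated to that symbol alone. Where a gene had several such probe sets, the one with the highest mean was used. Of the 40 genes, 38 had such a probe set and 37 passed the low-signal filter, among 10804 genes tested in all. Gusb, the beta-glucuronidase, lay under the filter with a mean log2 value of 6.96. Naglu and Sgsh, enzymes of heparan sulfate breakdown, had no probe set annotated to their symbol alone and were not analysed here. The only member with more than 1 probe set was Atp6v1a, with 2.

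The animals were 18 male wild-type Wistar rats, 2 months old and weighing 200 to 250 g, with 3 rats in each of 6 groups. In 4 groups, unpredictable chronic mild stress (uCMS) lasted 6 weeks, and the rats were injected intraperitoneally each day of the last 2 weeks with an antidepressant. Fluoxetine was given at 10 mg/kg in ultra-pure water, imipramine and tianeptine at 10 mg/kg in 0.9% saline, and agomelatine at 40 mg/kg in 0.5% hydroxyethylcellulose. The stress group went through uCMS without a drug, and the control group was untreated. Whether stress and control animals were injected is not stated in the labels, so a difference between a drug group and stress cannot be told apart from an effect of injection or vehicle. The dose and the vehicle of agomelatine differ from those of the other drugs. Fluoxetine inhibits serotonin reuptake, imipramine is a tricyclic reuptake inhibitor, tianeptine an atypical tricyclic and agomelatine a melatonin receptor agonist. All 4 drug groups were set against the same 3 stress animals, so these comparisons are not independent of one another.

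A lysosome degrades proteins, glycans and lipids with hydrolases that work at acid pH, which a proton pump, the V-ATPase, maintains. Many lysosomal genes share a short promoter motif bound by the transcription factor TFEB, and their products are needed by neurons and glia, since loss of several of them causes storage diseases of the brain. Fluoxetine and imipramine are cationic amphiphilic drugs: they gather in acid organelles, and both are known as functional inhibitors of acid sphingomyelinase, the product of Smpd1. Tianeptine is tricyclic like imipramine but carries a carboxylic acid side chain.

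The promoters are shown as background. Since the motif is known from lysosomal genes, a higher share among them follows from the choice of genes and is not an independent result. RefSeq promoters of assembly GRCr8, which run from 250 bases before to 50 bases after a gene's start, were at hand for 32 of the 40 genes. No entry was at hand for Hexa, Ppt1, Asah1, Atp6v1b2, Atp6v1h, Psap, Arsa and Ctsb. The palindrome CACGTG, which reads the same on both strands, occurred in 7 of the 32 promoters (21.9%). It occurred in 6.42% of 33469 promoters of all genes and in 7.02% of those of protein coding genes. The longer palindrome TCACGTGA, which contains CACGTG, occurred in 4 of 32 (12.5%), against 0.777% of all promoters and 1.02% of protein coding ones. The form with a further G before it and C after it occurred in 0 of 32 and in 0.233% of all promoters. The genes with TCACGTGA were Atp6v0d1, Lamp1, Mcoln1 and Ctsd, with 2 copies in Lamp1. Cd63, Glb1 and Sgsh held CACGTG alone. The windows lie at chr19:50357283-50357312 (minus strand, Atp6v0d1), chr16:83075111-83075140 and chr16:83075084-83075113 (minus strand, Lamp1), chr12:6358250-6358279 (plus strand, Mcoln1) and chr1:206968814-206968843 (minus strand, Ctsd). Counted from the gene's start, the first base of the motif is at position -53 in Atp6v0d1, -66 and -39 in Lamp1, 4 in Mcoln1 and -11 in Ctsd. Capitals mark the motif in each 30-base window, written 5′ to 3′ on the gene's strand.
Atp6v0d1: ccccattgtggTCACGTGAgatgcagtgcg
Lamp1, outer copy: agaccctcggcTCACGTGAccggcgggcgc
Lamp1, inner copy: cgcggcactgtTCACGTGAcaggcgctgcc
Mcoln1: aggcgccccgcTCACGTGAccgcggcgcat
Ctsd: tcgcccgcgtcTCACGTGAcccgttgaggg
A match describes letters in the window and is not evidence that a factor binds there. The promoter of Grn, the member with the largest difference called below, held no CACGTG.

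Array medians over all probe sets lay between 7.99 and 8.10 on the log2 scale, and correlations between arrays between 0.987 and 0.997. The granule neuron marker Prox1 lay between 11.05 and 11.84 in every animal, so the labelled tissue was represented in all groups. Cell type levels are given as scores: every log2 value had its gene's average over the 18 animals taken away, and the results were averaged over a marker list in each animal. Agomelatine 1 had a choroid plexus score of 3.31 over 5 genes, against -0.172 and -0.132 in the other agomelatine animals. Among the animals of the other groups, stress 1 had the highest choroid plexus score, 0.902. The oligodendrocyte score over 11 genes was 0.421 to 0.780 in agomelatine animals, against -0.212 to 0.0416 in all others. The granule neuron score over 7 genes was -0.205 to -0.179 in agomelatine animals, against -0.0535 to 0.127 in all others. Each control animal was also run on a repeat array, and control values are means of both arrays unless stated. In RNA from dissected tissue, fewer cells of a type and less RNA per cell cannot be told apart.

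**Figure D1:**
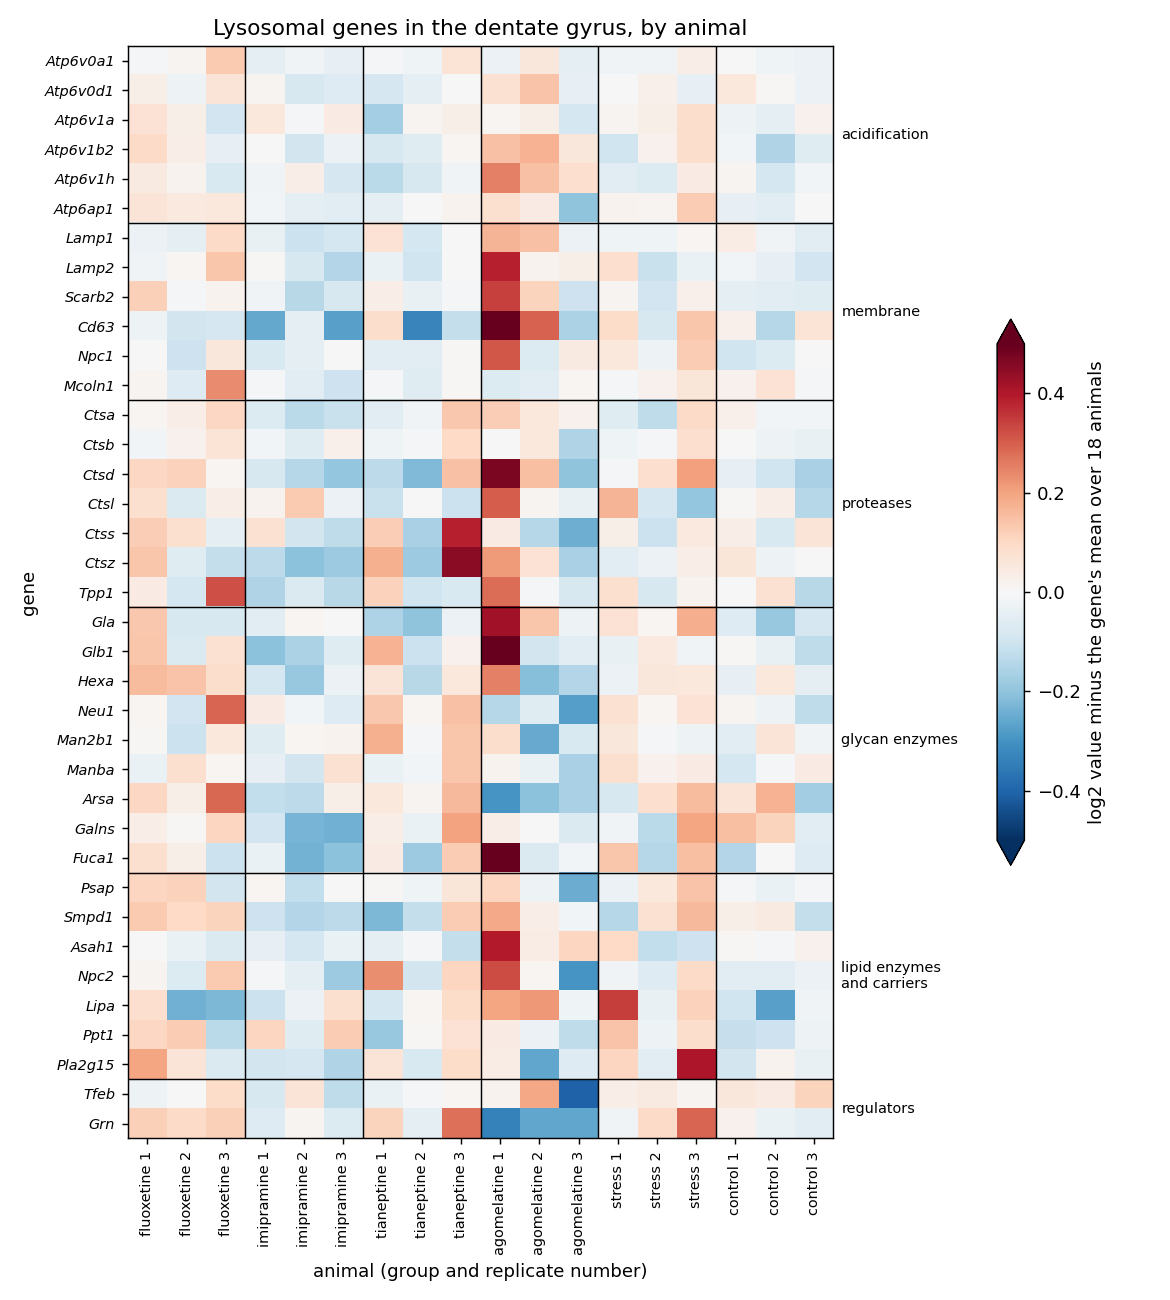
Log2 value of each tested lysosomal gene in each animal minus that gene's mean over the 18 animals; rows are genes grouped by role, columns are animals by group, and the colour scale is cut at 0.5 in both directions. The column of agomelatine 1 holds most of the deep red cells, the imipramine columns are mostly pale blue, and the Grn row is blue in all 3 agomelatine animals.

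Few lysosomal genes differed among groups by the test. By a moderated F test over the 6 groups 1 of the 37 genes, Grn, passed an adjusted p of 0.05 (adjusted p = 0.0131), where 6.76% of all genes tested passed. At an unadjusted p under 0.05 there were 6 of 37, against 23.9% of all genes. The range between the highest and the lowest group mean was 0.54 for Cd63 and 0.41 for Grn, and it was 0.057 for Ctsb, a cysteine protease. Animals within a group differed by a median SD of 0.151 over the lysosomal genes in agomelatine, 0.0786 in fluoxetine, 0.0530 in imipramine, 0.0894 in tianeptine, 0.0819 in stress and 0.0529 in control. In agomelatine the widest member was Cd63, with an SD of 0.530 (n = 3). Agomelatine 1 was the highest of the 18 animals for 15 of the 37 genes (40.5%), against 16.7% of all genes. Agomelatine 3 was the lowest for 8 (21.6%), against 18.5% of all genes. Because a gene's spread was pooled over the groups, standard errors may understate the error where agomelatine is compared and overstate it elsewhere.

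Agomelatine was the only drug for which lysosomal genes were called against stress. Grn, which encodes progranulin, a glycoprotein processed to granulins inside lysosomes, fell, and Atp6v1h, the regulatory H subunit of the V-ATPase, rose. These 2 of 37 genes (adjusted p under 0.05) compare with 10.8% of all genes called in this comparison, 4.18% higher and 6.58% lower. The share of lysosomal genes called was therefore not above that of genes at large. Grn had log2 values of 9.82, 9.90 and 9.90 in agomelatine animals, against 10.14, 10.26 and 10.45 in stress animals. All 3 agomelatine animals lay below all stress animals, and below every animal of the other 4 groups. The difference was -0.41 ± 0.077 (SE, n = 3 each; adjusted p = 0.00378), or 0.753-fold. Atp6v1h had values of 11.27, 11.17 and 11.10 in agomelatine animals, against 10.97, 10.95 and 11.06 in stress animals. The groups did not overlap, although the lowest agomelatine animal was close to the highest stress animal. The difference was 0.19 ± 0.058 (SE; adjusted p = 0.0438), or 1.14-fold. The call of Atp6v1h was lost when any 1 of 12 animals was left out (fluoxetine 1 and 2, imipramine 1 to 3, tianeptine 2, agomelatine 1 and 2, stress 1 and 2, control 1 and 3), with an adjusted p of up to 0.160. That of Grn held whichever of the 18 animals was left out, with differences of -0.48 to -0.33, but was lost when only the agomelatine and stress animals were fitted (adjusted p = 0.0519).

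Cell type markers from 12 lists were read in the same comparison. All 11 measured oligodendrocyte markers were called higher in agomelatine, as were 2 of 7 pyramidal neuron markers (Wfs1 at 0.76 and Man1a1 at 0.66) and 1 of 5 oligodendrocyte precursor markers (Bcas1 at 0.43). Of the 7 genes on the granule neuron list 2 were called lower and 1, Gabra5 (0.47), higher. The astrocyte marker Aldh1l1 (-0.24) and the endothelial marker Cldn5 (-0.36) were called lower. The oligodendrocyte score was higher and the astrocyte and granule neuron scores were lower than in stress without overlap. The pyramidal neuron score was 0.641, 0.534 and -0.00127 in agomelatine animals, against -0.191, -0.154 and 0.489 in stress animals, which overlap. The part of cell composition in the 2 lysosomal calls was not tested. Leaving out agomelatine 1, the animal with the choroid plexus score of 3.31, left 1 called lysosomal gene, Grn, at -0.38 (adjusted p = 0.0149). Leaving out agomelatine 3 gave 4, namely Grn, Atp6v1h, Cd63 (0.55) and Scarb2 (0.25). The number called over all genes, 1163 as reported, moved between alternatives too, from 163 to 1957.

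The other V-ATPase genes did not pass the test in agomelatine against stress. The nearest was Atp6v1b2, the B subunit isoform common in brain, at 0.12 (adjusted p = 0.162). Its values were 12.75, 12.78 and 12.66 in agomelatine animals and 12.50, 12.62 and 12.69 in stress animals, which overlap. The membrane sector genes Atp6v0a1 and Atp6v0d1 differed by -0.0037 and 0.07, the catalytic subunit gene Atp6v1a by -0.06 and the accessory subunit gene Atp6ap1 by -0.08. The other probe set of Atp6v1a, with a mean of 12.00, differed by 0.01. Of the 6 membrane genes, 5 had positive differences and none was called. Cd63, a tetraspanin of late endosomes and lysosomes, had values of 10.48, 9.87 and 9.42 in agomelatine animals, against 9.67, 9.50 and 9.72 in stress animals. The agomelatine animals lay on both sides of the stress animals, with agomelatine 1 highest of all, and the difference was 0.30 ± 0.170 (SE; adjusted p = 0.280). Lamp1 and Lamp2, the abundant membrane glycoproteins, differed by 0.11 and 0.16, and Scarb2, the receptor that carries glucocerebrosidase to lysosomes, by 0.14. Npc1, which exports cholesterol, differed by 0.04 and Mcoln1, a calcium release channel, by -0.06.

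No protease gene was called. The differences of the 7 lay between -0.11 for Ctss and 0.13 for Ctsl, both cysteine protease genes. Ctsd, the aspartic protease, had values of 11.80, 11.47 and 11.12 in agomelatine animals, against 11.31, 11.41 and 11.53 in stress animals. Agomelatine 1 and agomelatine 3 were the highest and the lowest of these 6 animals, and the difference was 0.05 ± 0.118 (SE; adjusted p = 0.838). Of the 9 tested glycan enzymes, 6 had negative differences. Arsa, the arylsulfatase that acts on the myelin lipid sulfatide, had values of 8.91, 9.01 and 9.05 in agomelatine animals, against 9.13, 9.30 and 9.37 in stress animals. The groups did not overlap, and at -0.28 ± 0.091 (SE) Arsa missed the threshold (adjusted p = 0.0587). Arsa was called with the repeat control arrays alone (adjusted p = 0.0491) and with a filter at the 50th percentile (adjusted p = 0.0444). It was also called without fluoxetine 3, stress 1 or control 3, in turn. Neu1, a sialidase, was also without overlap, at -0.21 (adjusted p = 0.110). Among the lipid genes, Asah1, the acid ceramidase, differed by 0.22 (adjusted p = 0.0658) and Pla2g15, a lysosomal phospholipase, by -0.25 (adjusted p = 0.125). Asah1 was called with equal array medians (adjusted p = 0.0193) and with a further quantile normalisation (adjusted p = 0.0417). It was also called without agomelatine 2 or stress 1, in turn. Smpd1 differed by 0.04 ± 0.085 (SE; adjusted p = 0.821), with values of 10.77, 10.61 and 10.56 in agomelatine animals and 10.44, 10.66 and 10.74 in stress animals. Tfeb had values of 8.07, 8.24 and 7.64 in agomelatine animals, against 8.08, 8.09 and 8.06 in stress animals. Its 3 stress animals were within 0.030 of each other while agomelatine 3 lay far below, and the difference of -0.10 ± 0.104 (SE) had an adjusted p of 0.603.

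Over the 37 genes the median difference between agomelatine and stress was 0.0100, with 19 above and 18 below 0, while the median over all genes was -0.0252. Without agomelatine 1 the split was 11 above and 26 below 0, and without agomelatine 3 it was 25 above and 12 below. With all arrays shifted to equal medians it was 22 above and 15 below. The groups were without overlap for 5 of the 37 genes, 1 higher and 4 lower, as they were for 25.2% of all genes (9.36% higher and 15.9% lower). The 5 were Atp6v1h, Grn, Arsa, Neu1 and the beta-mannosidase gene Manba.

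**Figure D2:**
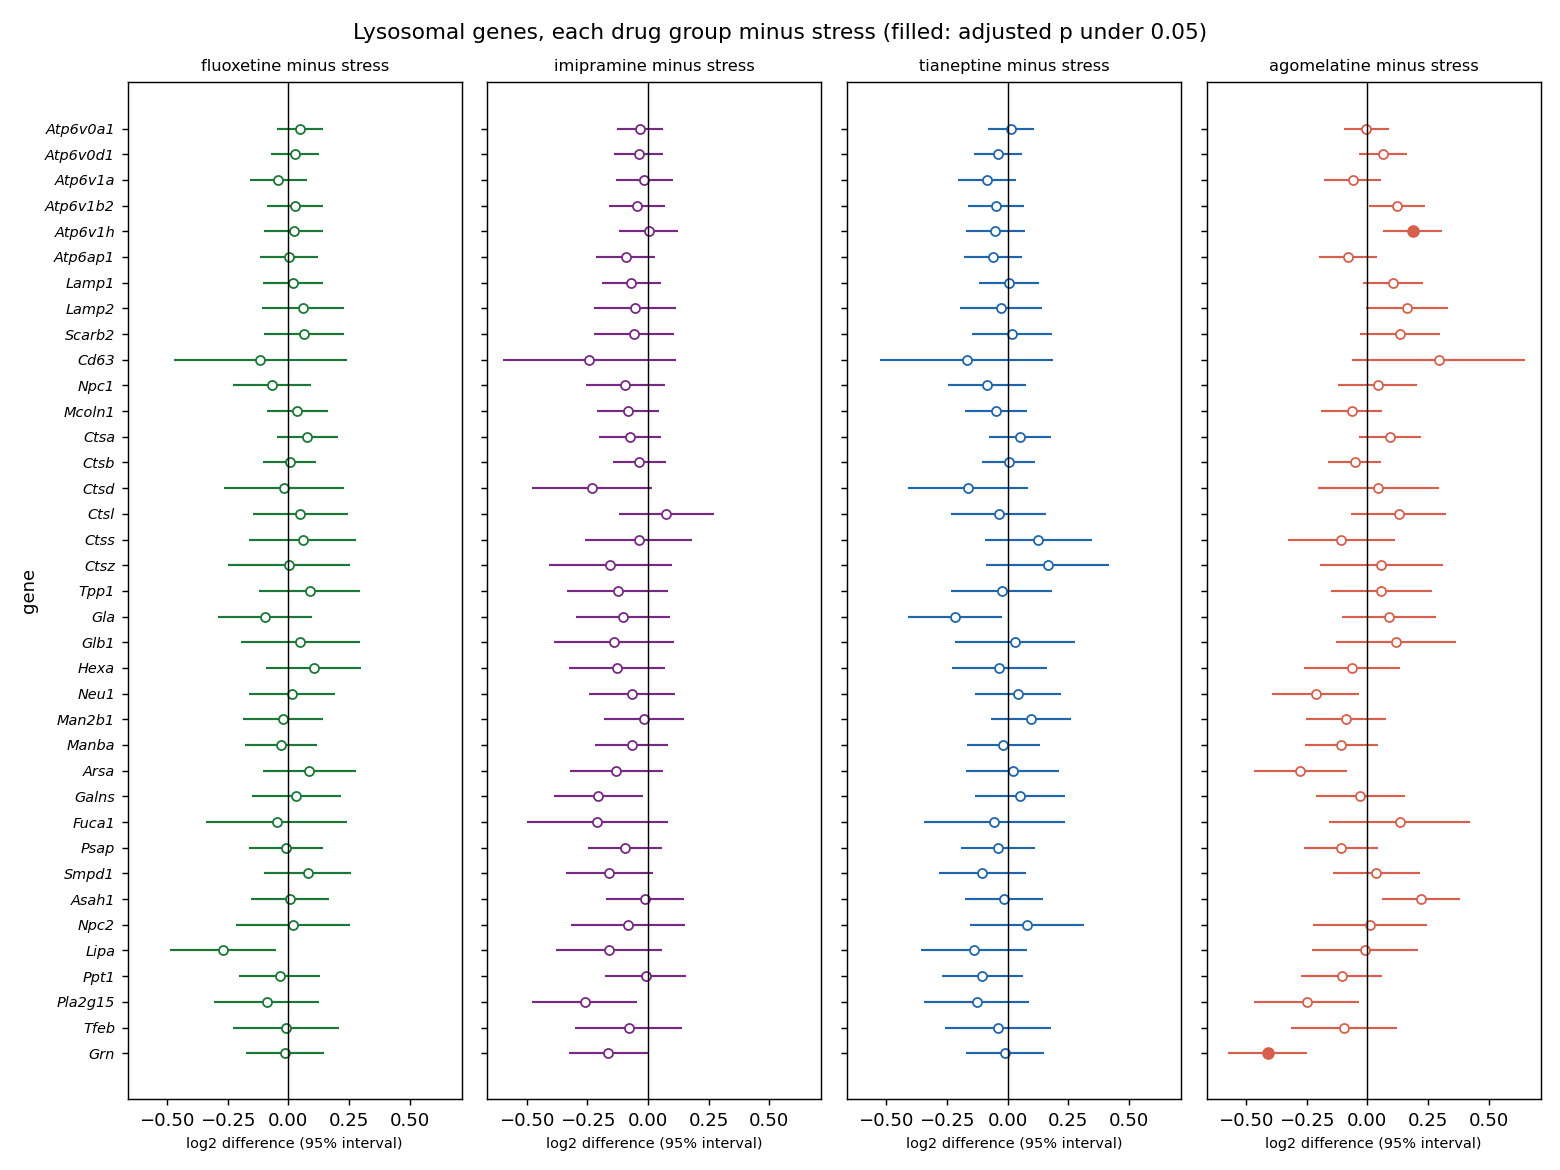
Difference in mean log2 value between each drug group and stress (x axis, 1 panel per drug) for the 37 tested lysosomal genes (y axis, by role), with 95% intervals from limma; filled points have an adjusted p under 0.05. The only filled points are Grn at -0.41 and Atp6v1h at 0.19 in agomelatine, and 35 of the 37 imipramine points lie below 0.

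Agomelatine animals were also set against untreated controls. The differences of this comparison use no stress animals, but its standard errors do, since the spread was pooled over the 6 groups. Here 3 of 37 genes were called, against 9.59% of all genes: Atp6v1b2 and Atp6v1h rose and Grn fell. Atp6v1b2 had the 12.75, 12.78 and 12.66 given above in agomelatine animals, against 12.59, 12.45 and 12.54 in control animals, without overlap (0.20 ± 0.055, SE; adjusted p = 0.0298). Atp6v1h had control values of 11.04, 10.93 and 11.01, all below the agomelatine animals (0.19 ± 0.058, SE; adjusted p = 0.0454). Grn had control values of 10.18, 10.13 and 10.10, all above the agomelatine animals (-0.26 ± 0.077, SE; adjusted p = 0.0368). Of the 18 fits with 1 animal left out, 13 lost the call of Atp6v1h (adjusted p up to 0.196). The call of Grn was lost in 5 of them (up to 0.121) and that of Atp6v1b2 in 4 (up to 0.152). Gla, the alpha-galactosidase, missed the threshold at 0.29 (adjusted p = 0.0541). Without agomelatine 1, agomelatine 2 or control 2, in turn, no lysosomal gene was called, without control 1 or control 3 there was 1, and without agomelatine 3 there were 7. The number called over all genes, 1036 as reported, also moved between alternatives, from 278 (without control 2) to 1864 (first control arrays alone). These counts of lysosomal genes are therefore no result about the lysosomal genes alone. The median over the 37 genes was 0.0503, with 24 above and 13 below 0, and -0.0135 over all genes. There was no overlap for 6 genes, 5 higher and 1 lower, against 25.7% of all genes (12.4% higher and 13.3% lower). The 6 V-ATPase genes differed by 0.00017 (Atp6v1a) to 0.20 (Atp6v1b2). Of the 12 marker scores, 7 were free of overlap here. The 11 oligodendrocyte markers were again called higher, as were the pyramidal neuron markers Wfs1 (0.82) and Man1a1 (0.90), the interneuron markers Gad2 (0.34) and Cck (0.70), and the oligodendrocyte precursor markers Bcas1 (0.52) and Sox10 (0.22). Calb2 (0.55), of the immature neuron list, and Enpp2 (1.52), of the choroid plexus list, were also called higher. Of the genes on the granule neuron list Prox1 (-0.44), C1ql2 (-0.70) and Neurod1 (-0.28) were called lower and Gabra5 (0.52) higher, as the pyramidal neuron markers were. The part of these lists in the 3 lysosomal calls was not tested.

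**Figure D3:**
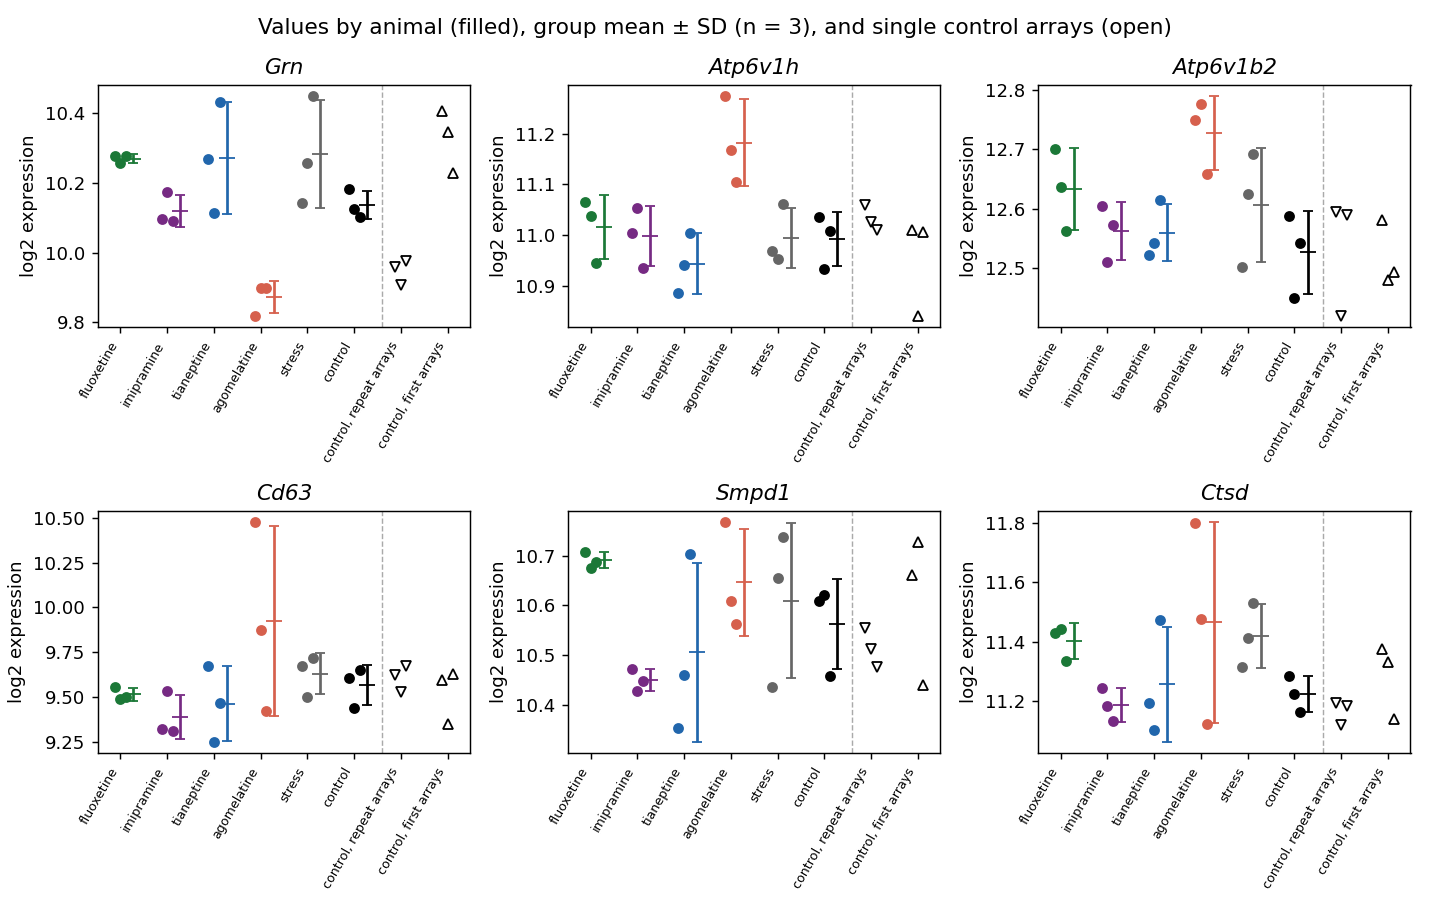
Log2 values of 6 lysosomal genes by animal (filled points; left to right fluoxetine, imipramine, tianeptine, agomelatine, stress and control), with the group mean ± SD (n = 3), and the single repeat and first arrays of the control animals (open points, right of the dashed line); axes do not start at 0 and differ between panels. Grn is lowest in agomelatine animals and on the repeat control arrays, and the agomelatine animals spread widely for Cd63 and Ctsd.

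The repeat arrays of the control animals bear on Grn directly. The same 3 animals gave Grn values of 9.96, 9.91 and 9.98 on the repeat arrays, against 10.41, 10.35 and 10.23 on the first arrays. Every repeat array lay below every first array, with a mean difference of -0.379 (repeat minus first), the most negative of the 37 tested lysosomal genes. The agomelatine values of 9.82 to 9.90 were thus close to those of the repeat arrays. Against the repeat arrays alone Grn differed by -0.07 in agomelatine (adjusted p = 0.595), and against the first arrays alone by -0.45 (adjusted p = 0.00140). In stress against control, Grn was called with the repeat arrays alone as controls (0.34, adjusted p = 0.0465), as 1 of 126 genes called in all, where the averaged arrays gave 0.15 (adjusted p = 0.828).

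Repeat and first arrays differed for other lysosomal genes too. For 23 of 37 (62.2%) all 3 animals moved the same way, against 44.7% of all genes, with 23 genes lower and 14 higher on the repeat arrays by their mean. The median was -0.0877 over the 37 genes and -0.0187 over all genes. Pla2g15 differed by -0.32 and Ctss by -0.23 (repeat minus first), while Atp6v0d1 differed by 0.15. Across the 37 genes, the repeat minus first difference had a Pearson correlation of 0.680 with the agomelatine minus stress difference, which uses no control arrays (0.476 across all 10804 genes). The same value was 0.291 for fluoxetine, 0.256 for imipramine and 0.0908 for tianeptine. Genes are not independent replicates and all values come from 1 normalisation, so these are descriptions without a p. The labels do not say when or how the repeat arrays and the agomelatine arrays were run, and the part of the array run in the agomelatine calls was not tested.

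**Figure D4:**
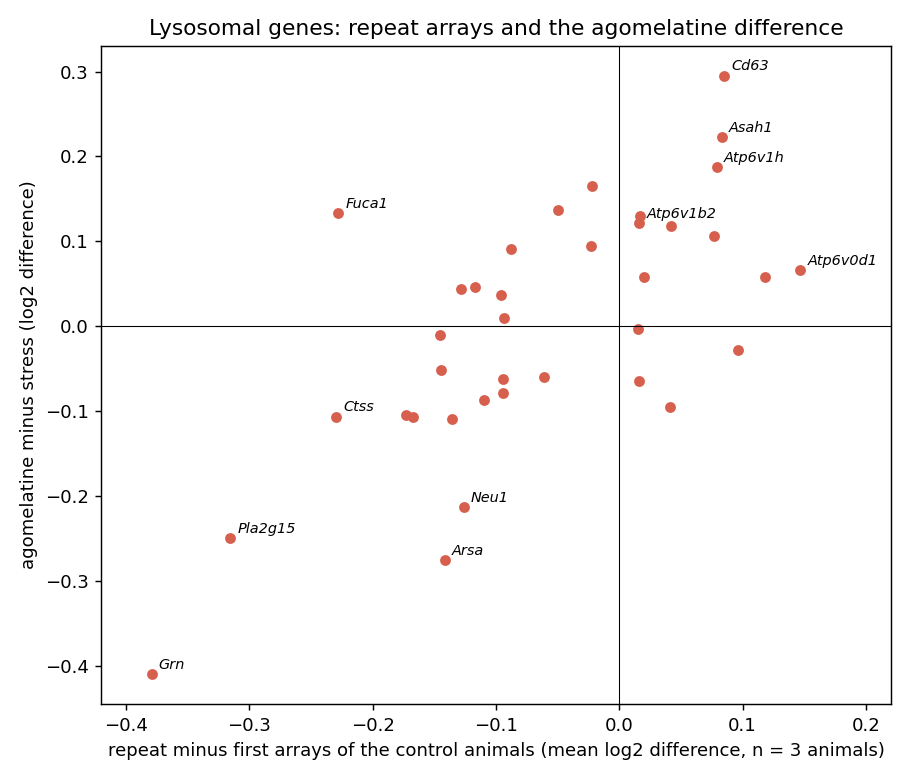
Mean difference between the repeat and the first arrays of the 3 control animals (x axis, log2) against the difference between agomelatine and stress (y axis, log2), 1 point per tested lysosomal gene, with 11 genes labelled. Grn lies at the lower left corner (-0.38 and -0.41), and Cd63, Asah1 and Atp6v1h lie at the upper right.

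Imipramine gave small negative differences from stress for nearly all lysosomal genes, but none passed the test. limma called 0 of 37 genes, as it called 0% of all genes, and 3 of 37 had an unadjusted p under 0.05, against 10% of all genes. The differences of 35 of the 37 genes were below 0, with a median of -0.0820 against -0.0230 over all genes, of which 59.6% were below 0. The genes above 0 were Ctsl and Atp6v1h. With equal array medians the split was 26 below and 11 above 0, with a median of -0.0372 against 0.0218 over all genes. Whichever of the 18 animals was left out, the median lay between -0.0992 and -0.0570. Genes of a list are not independent, so the count has no p of its own.

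The largest imipramine difference was that of Pla2g15, whose product some cationic amphiphilic drugs inhibit. It had values of 8.16, 8.17 and 8.11 in imipramine animals, against 8.36, 8.20 and 8.66 in stress animals. The groups did not overlap, with stress 3 far above the rest. The difference was -0.26 ± 0.103 (SE; unadjusted p = 0.0207, adjusted p = 0.466), and -0.36 to -0.13 with each animal left out in turn. Ctsd had values of 11.25, 11.19 and 11.13 in imipramine animals, against the 11.31, 11.41 and 11.53 of stress animals, also without overlap (-0.23 ± 0.118, SE; unadjusted p = 0.0662, adjusted p = 0.518). Smpd1 had values of 10.47, 10.43 and 10.45 in imipramine animals, against 10.44, 10.66 and 10.74 in stress animals. Stress 1 lay among the imipramine animals and the other stress animals above them. The difference was -0.16 ± 0.085 (SE; 95% interval -0.34 to 0.02; adjusted p = 0.526). Against control, imipramine differed by -0.07 for Pla2g15, -0.04 for Ctsd and -0.11 for Smpd1. Stress differed from control by 0.19, 0.19 and 0.05 in the same order. Without overlap were 7 genes, all lower in imipramine, against 19.7% of all genes (7.16% higher and 12.6% lower). The 7 were Pla2g15, Ctsd, Atp6ap1, Lamp1, Mcoln1, the carboxypeptidase gene Ctsz and Glb1, the beta-galactosidase. By role, differences were below 0 for 5 of 6 V-ATPase genes, 6 of 6 membrane genes, 6 of 7 proteases, 9 of 9 glycan enzymes, 7 of 7 lipid genes and both regulators.

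The microglia score over 11 genes was -0.192 to -0.0284 in imipramine animals and -0.0581 to 0.121 in stress animals, so the groups overlapped, and 10 of the 11 genes had negative differences with none called. Scores of 3 of the 12 marker lists did not overlap. The meninges score was -0.196 to -0.161 in imipramine animals, against -0.103 to 0.508 in stress animals. The interneuron score was -0.192 to -0.120 in imipramine animals, against -0.117 to 0.290 in stress animals. The granule neuron score was higher, at 0.0282 to 0.0682 in imipramine animals, against -0.0316 to 0.0261 in stress animals. No gene of these lists was called, and the part of cell composition in the imipramine differences was not tested.

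Fluoxetine gave differences from stress on both sides of 0, none of which passed the test. limma called 0 of 37 genes against stress and 0% of all genes, and 1 of 37 had an unadjusted p under 0.05, against 5.01% of all genes. That gene was Lipa, the lysosomal acid lipase, at -0.27 ± 0.104 (SE; adjusted p = 0.959). Its values were 9.98, 9.66 and 9.67 in fluoxetine animals and 10.24, 9.86 and 10.01 in stress animals, which overlap. The median over the lysosomal genes was 0.0163, with 23 above and 14 below 0, and -0.00900 over all genes. With equal array medians 30 lay above 0 and 7 below, and without stress 2 the median was -0.00533. The only gene of the 37 without overlap, against 10.8% of all genes (5.02% higher and 5.74% lower), was Hexa, the alpha subunit of beta-hexosaminidase, at 9.64, 9.62 and 9.57 in fluoxetine animals, against 9.45, 9.54 and 9.53 in stress animals (0.10, adjusted p = 0.974). Smpd1 was at 10.71, 10.68 and 10.69 in fluoxetine animals, inside the range of the stress animals, with a difference of 0.08 and a 95% interval of -0.10 to 0.26. Tfeb differed by -0.01 ± 0.104 (SE) and Mcoln1 by 0.04 ± 0.061 (SE). The vascular and choroid plexus scores were lower, and the granule neuron score and the 1 measured blood marker higher, in fluoxetine than in stress without overlap, and their part was not tested. Over the 37 genes the 95% intervals reached no lower than -0.49 and no higher than 0.30.

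The mean of the fluoxetine and imipramine group means did not differ from stress for any lysosomal gene by the test. limma called 0 of 37 (0% of all genes), with 1, Lipa (-0.21 ± 0.090, SE), at an unadjusted p under 0.05 against 5.96% of all genes. The median was -0.0248, with 7 genes above and 30 below 0, with equal array medians 22 above and 15 below, and with a further quantile normalisation 11 above and 26 below. No lysosomal gene separated the 6 treated animals from the 3 stress animals, and 2.95% of all genes did (1.33% higher and 1.62% lower).

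Imipramine and tianeptine were both given at 10 mg/kg in saline for the same 2 weeks, and differ in structure in their ring systems and in the carboxylic acid of tianeptine. limma called 0 of 37 genes between them (0% of all genes), and 2 of 37 had an unadjusted p under 0.05, against 6.15% of all genes. These 2 were Galns and Ctsz. Galns, a sulfatase of keratan sulfate, had values of 8.21, 8.07 and 8.06 in imipramine animals, against 8.34, 8.27 and 8.51 in tianeptine animals. The groups did not overlap, and the difference was -0.26 ± 0.088 (SE; 95% interval -0.44 to -0.07; adjusted p = 0.789). Ctsa, of the proteases, encodes the protective protein that stabilises some glycan enzymes. It had values of 11.08, 11.02 and 11.04 in imipramine animals, against 11.10, 11.13 and 11.29 in tianeptine animals. Here too there was no overlap, at -0.13 ± 0.060 (SE; 95% interval -0.25 to 0.00084; unadjusted p = 0.0514, adjusted p = 0.802). Ctsz had the largest difference of the 37 genes, -0.32. Its animals overlapped, at 8.16 to 8.24 in imipramine and 8.18 to 8.82 in tianeptine. There were 3 genes without overlap, all lower in imipramine, against 15.5% of all genes (7.78% higher and 7.77% lower). The median was -0.0557, with 8 genes above and 29 below 0, and -0.0137 over all genes. Smpd1 differed by -0.06, with a 95% interval of -0.24 to 0.12. A p above the threshold does not show that the compounds act alike, and over the 37 genes the intervals reached from -0.57 to 0.31. The microglia score was -0.192 to -0.0284 in imipramine animals, against 0.246, -0.123 and 0.472 in tianeptine animals. The interneuron score was -0.192 to -0.120 in imipramine animals, against -0.0196 to 0.0820 in tianeptine animals, and the meninges score was also lower in imipramine without overlap. The part of cell composition in these differences was not tested. The mean of the fluoxetine and imipramine group means, against tianeptine, gave 0 of 37 called (0% of all genes). At an unadjusted p under 0.05 there was 1, Ctsz (-0.24 ± 0.104, SE), against 3.7% of all genes. The median of that comparison was -0.0107, with 16 genes above and 21 below 0. No lysosomal gene separated the animals, and 1.95% of all genes did (1.06% higher and 0.889% lower).

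The contrast between fluoxetine and imipramine was added after the values were seen, as was that of imipramine with control. Both drugs were given at 10 mg/kg for the same time, in different vehicles. limma called 0 of 37 genes between fluoxetine and imipramine (0% of all genes), and 6 of 37 had an unadjusted p under 0.05, against 11% of all genes. Of the 37 genes 32 were higher in fluoxetine, with a median of 0.0950 against 0.0173 over all genes, of which 57.1% were higher. With equal array medians the split was again 32 to 5. The interneuron score was 0.0294 to 0.146 in fluoxetine animals, against -0.192 to -0.120 in imipramine animals, and 10 of 11 microglia markers had positive differences with none called. The immature neuron score was lower in fluoxetine without overlap, and the other 10 of the 12 marker scores overlapped. The part of cell composition in these differences was not tested. Smpd1 had the smallest p, with 10.71, 10.68 and 10.69 in fluoxetine animals and 10.47, 10.43 and 10.45 in imipramine animals. Both groups were tight and did not overlap, and the difference was 0.24 ± 0.085 (SE; 95% interval 0.06 to 0.42; adjusted p = 0.349). Galns had 8.34, 8.31 and 8.41 in fluoxetine animals, against 8.21, 8.07 and 8.06 in imipramine animals (0.24 ± 0.088, SE; adjusted p = 0.355). In fluoxetine 11 genes were higher without overlap and none lower, against 20.3% of all genes without overlap (12.5% higher and 7.79% lower). The 11 were Atp6v0a1, Atp6ap1, Scarb2, Ctsa, Ctsd, Ctsz, Hexa, Galns, Smpd1, Pla2g15 and Grn. With array weights, which called 486 of all genes, 3 lysosomal genes were called: Smpd1 (0.24, adjusted p = 0.0338), Hexa (0.23, adjusted p = 0.0485) and Ctsd (0.26, adjusted p = 0.0499).

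Imipramine against control gave 0 of 37 called, against 0.0185% of all genes, and 1 of 37 had an unadjusted p under 0.05, against 8.27%. That gene was Galns, lower without overlap at -0.26 ± 0.088 (SE; adjusted p = 0.433). The median was -0.0320, with 10 genes above and 27 below 0, and with the repeat arrays alone as controls 20 above and 17 below. There was no overlap for 6 genes, 1 higher and 5 lower, against 19.3% of all genes (9.14% higher and 10.1% lower). Galns had 8.21, 8.07 and 8.06 in imipramine animals, against 8.45, 8.42 and 8.25 in control animals. Ctsa had the imipramine values given above, against 11.18, 11.14 and 11.14 in control animals (-0.10 ± 0.060, SE; adjusted p = 0.707). The gene that was higher was Gla, at 9.53, 9.60 and 9.58 in imipramine animals, against 9.52, 9.40 and 9.51 in control animals (0.10, adjusted p = 0.855). The vascular score was lower and the immature neuron score higher in imipramine than in control without overlap, and their part was not tested.

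Tianeptine gave 0 of 37 called against stress (0% of all genes), and 1 of 37 had an unadjusted p under 0.05, against 5.06%. This was Gla, at 9.43, 9.39 and 9.56 in tianeptine animals, against 9.66, 9.60 and 9.77 in stress animals. The groups did not overlap, and the difference was -0.22 ± 0.092 (SE; adjusted p = 0.943). Tfeb also did not overlap, with 8.02, 8.04 and 8.06 in tianeptine animals, at -0.04 (adjusted p = 0.983), a sign that turned to 0.0065 with equal array medians. These 2 of 37 compare with 11.2% of all genes without overlap (4.6% higher and 6.6% lower). The median was -0.0337, with 13 genes above and 24 below 0, with equal array medians 24 above and 13 below, and with a further quantile normalisation 17 above and 20 below. Without tianeptine 2 it was 0.00067. Tianeptine 3 was the highest of the 18 animals for 6 lysosomal genes (16.2%, against 3.16% of all genes). In that animal the cysteine protease genes Ctss and Ctsz, which microglia express, were at 11.51 and 8.82, against 11.24 and 10.96 (Ctss) and 8.55 and 8.18 (Ctsz) in the other tianeptine animals. It also had the highest microglia score of all animals, 0.472. The choroid plexus score was lower, and the granule neuron score and the 1 measured blood marker higher, in tianeptine than in stress without overlap, and their part was not tested.

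Stress against control gave 0 of 37 called (0% of all genes), and 2 of 37 had an unadjusted p under 0.05, against 5.4%. These 2 were Gla and Lipa. Gla had values of 9.66, 9.60 and 9.77 in stress animals, against 9.52, 9.40 and 9.51 in control animals, without overlap (0.20 ± 0.092, SE; adjusted p = 0.828). Ctsd had values of 11.31, 11.41 and 11.53 in stress animals, against 11.29, 11.23 and 11.16 in control animals, also without overlap (0.19 ± 0.118, SE; unadjusted p = 0.117, adjusted p = 0.830). Lipa differed by 0.27 (adjusted p = 0.828), with overlapping animals, at 9.86 to 10.24 in stress and 9.63 to 9.88 in control. The 3 genes without overlap, Gla, Ctsd and Atp6ap1, were all higher in stress, against 13.1% of all genes (8.02% higher and 5.08% lower). The median over the lysosomal genes was 0.0395, with 28 above and 9 below 0, and 0.0228 over all genes, of which 60.4% were above 0. With equal array medians the split was 15 above and 22 below 0, and with a further quantile normalisation 20 above and 17 below. The astrocyte score over 9 genes was 0.0238 to 0.115 in stress animals, against -0.0861 to -0.0106 in control animals, without overlap. The 1 measured blood marker was lower in stress without overlap, and the part of cell composition was not tested. Lamp1 differed by 0.00067 ± 0.058 (SE), Mcoln1 by -0.0050 ± 0.061 (SE) and Tfeb by -0.04 ± 0.104 (SE).

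The genes with TCACGTGA in the promoter were followed across the drugs. In agomelatine against stress Lamp1 differed by 0.11, Atp6v0d1 by 0.07, Ctsd by 0.05 and Mcoln1 by -0.06. In imipramine against stress they differed by -0.07, -0.04, -0.23 and -0.08 in the same order, in fluoxetine against stress by 0.02, 0.03, -0.02 and 0.04, and in tianeptine against stress by 0.0067, -0.04, -0.16 and -0.05. None of these 4 genes was called in any of the 11 comparisons. Lamp1 itself had 11.70, 11.67 and 11.50 in agomelatine animals, 11.50, 11.48 and 11.62 in fluoxetine animals and 11.49, 11.42 and 11.44 in imipramine animals. Stress animals had Lamp1 at 11.51, 11.51 and 11.53, so imipramine lay below them by a small margin and the other 2 drug groups overlapped them. Mcoln1 had 11.73, 11.65 and 11.95 in fluoxetine animals and 11.70, 11.66 and 11.61 in imipramine animals, against 11.71, 11.73 and 11.77 in stress animals. Fluoxetine 3 was the highest of these animals, and imipramine animals all lay below stress. Mcoln1 had 11.64, 11.65 and 11.72 in agomelatine animals and 11.70, 11.65 and 11.72 in tianeptine animals, against 11.73, 11.79 and 11.71 in control animals. Tfeb, which encodes the factor itself, had 8.02, 8.05 and 8.14 in fluoxetine animals and 7.97, 8.11 and 7.92 in imipramine animals, against 8.11, 8.09 and 8.16 in control animals. Its values in imipramine overlapped those in fluoxetine and control.

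**Figure D5:**
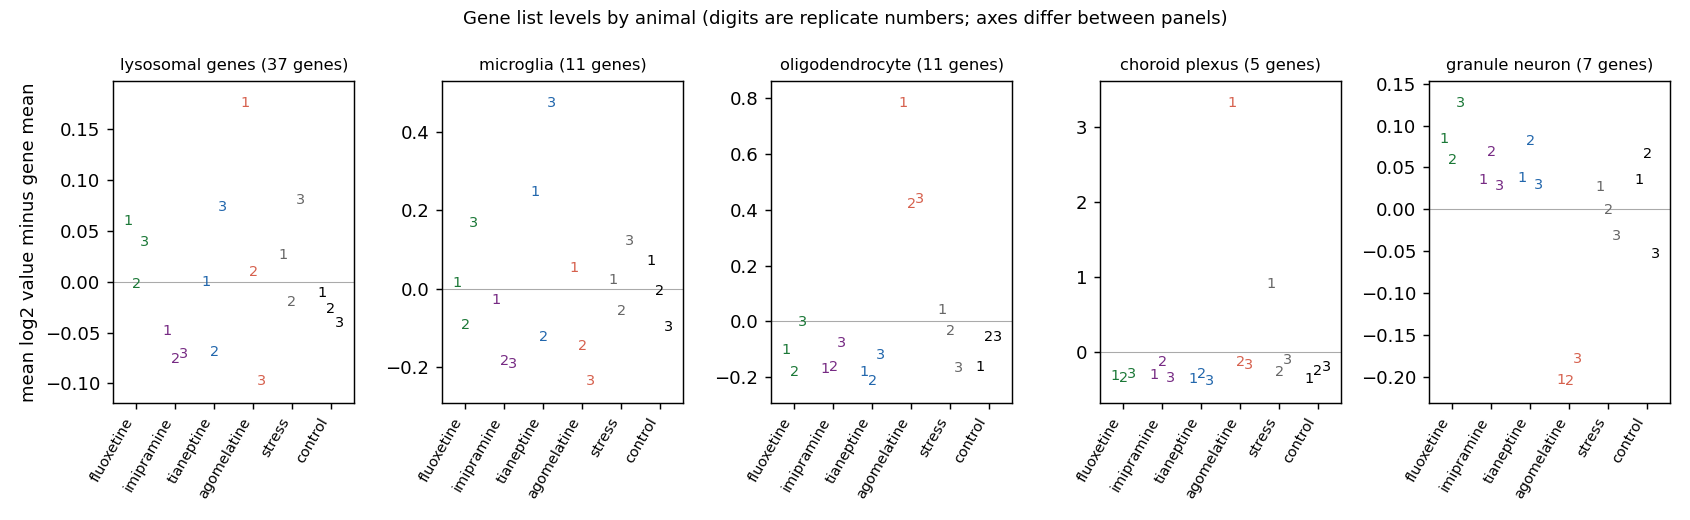
Mean log2 value minus the gene mean (y axis) per animal for the lysosomal genes and 4 cell type marker lists (panels, with the number of genes), by group (x axis); digits are replicate numbers and axes differ between panels. Imipramine animals lie at -0.0759 to -0.0486 for the lysosomal genes, agomelatine 1 stands apart for choroid plexus (3.31), and agomelatine animals are highest for oligodendrocyte genes and lowest for granule neuron genes.

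The lysosomal score, the mean over the 37 genes, was -0.00185 to 0.0596 in fluoxetine animals, -0.0759 to -0.0486 in imipramine animals and -0.0695 to 0.0733 in tianeptine animals. It was -0.0976 to 0.176 in agomelatine animals, -0.0201 to 0.0802 in stress animals and -0.0406 to -0.0113 in control animals. Agomelatine animals covered the whole range, from the lowest to the highest of the 18. Imipramine animals lay below all stress, control and fluoxetine animals, though the highest imipramine animal (-0.0486) was close to the lowest control animal (-0.0406). The scores were not rescaled for array level, and animal medians over the tested genes lay between 9.21 and 9.35. Under alternatives other than leaving out an animal, the median difference of imipramine against control ran from -0.067 to 0.015.

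Other genes of the lysosome and of autophagy were read from lists of 103 lysosomal and 21 autophagy genes, of which 84 and 20 were tested. In agomelatine against stress, 1 of 84 was called higher and 4 lower, against 4.18% and 6.58% of all genes. Tmem63a, an ion channel of lysosomal and cell membranes, rose by 0.51 ± 0.095 (SE; adjusted p = 0.00357), with means of 8.67 in agomelatine and 8.16 in stress. Glmp, a glycosylated lysosomal membrane protein, differed by -0.34 (adjusted p = 0.0166), the sialic acid exporter Slc17a5 by -0.27 (adjusted p = 0.0218) and the chloride-proton exchanger Clcn7 by -0.24 (adjusted p = 0.0444). Gnptg, a subunit of the enzyme that tags hydrolases for the lysosome, differed by -0.16 (adjusted p = 0.0345). None of the 12 further V-ATPase genes and none of the 20 further enzymes tested was called. Of 20 autophagy genes, 4 were called lower and 1 higher: the cargo receptor gene Sqstm1 differed by -0.29 (adjusted p = 0.0151), Vps18 by -0.26 (adjusted p = 0.0246), Atg7 by -0.23 (adjusted p = 0.0315), Gabarap by -0.21 (adjusted p = 0.0179) and the kinase gene Ulk2 by 0.22 (adjusted p = 0.0146). Oligodendrocyte markers rose in the same comparison, and with only the compared groups fitted 163 of all genes were called in place of 1163. The part of cell composition and of the array run in these calls was not tested.

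In agomelatine against control 3 of 84 were called, against 9.59% of all genes, so the share was not above that of genes at large. Tmem63a (0.50) and Rraga (0.25), a GTPase gene of nutrient sensing at the lysosome, rose and Slc17a5 (-0.28) fell. Of the 20 autophagy genes only Ulk2 (0.19) and Vps11 (0.22) were called, both higher. The part of cell composition and of the array run in these calls was not tested. In imipramine against stress none of the 84 was called, and 16 (19.0%) had an unadjusted p under 0.05, 14 of them lower, against 10% of all genes. Of the 84 genes 59 lay below 0 with a median of -0.0527, against 59.6% below 0 and a median of -0.0230 over all genes. With equal array medians 45 lay below and 39 above 0. In fluoxetine against stress none was called, with 46 above and 38 below 0 and a median of 0.0107, and with equal array medians 68 above and 16 below. In stress against control none was called, and 70 of the 84 lay above 0 with a median of 0.0622, against 60.4% above 0 and a median of 0.0228 over all genes. With equal array medians 44 lay above and 40 below 0, and with a further quantile normalisation 53 above and 31 below.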

How the data were processed

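Expression was measured on 21 arrays from 18 rats, 3 per group, with a repeat array for each control animal. Per the submitters' processing notes, the authors ran RMA in Expression Console 1.2 (Affymetrix) and deposited the resulting log2 value of each probe set. RMA corrects background, normalises between arrays and summarises probes, and it compresses differences at low signal. No genome build is stated. Arrays give no read depth, and the number of animals limits precision.

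Both arrays of a control animal were averaged. Of 29214 probe sets, 15310 had 1 gene symbol and 323 several in the platform annotation, and 15279 matched the RefSeq gene table by gene number. Probe sets at or above the 25th percentile of mean signal, log2 7.165, were kept, with the highest-mean probe set per gene (10804 of 14506 genes). With limma 3.58.1 (R 4.3.3), group means were fitted over the 18 animals (12 residual degrees of freedom, eBayes with trend), with Benjamini-Hochberg adjustment over all genes for each comparison. This fit pools a gene's spread over the groups. How it performs with the wider spread of the agomelatine animals was not tested. "Rose", "fell" and "called" mean an adjusted p under 0.05.

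The members and lists were chosen with earlier results of these data known. Values by animal were given for called members, for up to 2 members per direction of smallest p without overlap where none was called, and for Lamp1, Ctsd, Smpd1, Tfeb, Mcoln1 and Grn. Other lists gave up to 3 called genes each. Further genes (among them Cd63, Arsa, Lipa and the additional autophagy genes) and 2 of the 11 comparisons were picked once values were known. Alternatives covered the control arrays, the filter, array scaling, probe sets, array weights, the replicate number, the groups fitted, the variance trend, the threshold and each animal in turn.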

Additional observations from a re-analysis of the deposited data

How the results depend on the processing

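In agomelatine against stress, where 2 lysosomal genes were called, the count was 1 with the first control arrays alone, with the animal as a random block over the 21 arrays, with no filter, with array weights and without the variance trend. It was 0 with only the compared groups fitted (Grn at an adjusted p of 0.0519) and 4 at an adjusted p under 0.1. Leaving out each animal gave 1 to 4: it was 1 without fluoxetine 1 or 2, imipramine 1, 2 or 3, tianeptine 2, agomelatine 1, stress 2 or control 1, and 4 without fluoxetine 3 or agomelatine 3. In agomelatine against control, where 3 were called, the count was 1 with the repeat arrays alone (Gla, none of the 3) or without the trend (Grn), and 0 with array weights or only the compared groups fitted. Leaving out each animal gave 0 to 7, with 0 without agomelatine 1, agomelatine 2 or control 2, 1 without control 1 (Atp6v1b2) or control 3 (Arsa, none of the 3), and 7 without agomelatine 3. With the animal as a random block the count was 3, with Gla in place of Grn. The F test, which called 1, called 0 with that random block, and 0 to 3 with an animal left out (0 without agomelatine 1, 3 without agomelatine 3). Stress against control had 1 call with the repeat arrays alone, and fluoxetine against imipramine had 3 with array weights. Replicate numbers did not pair the animals (correlations of same-numbered animals -0.300 to 0.292, and 7 of 18 animals closest to their own number). With the replicate number as a block, agomelatine against stress had 1 call (Grn) and agomelatine against control 2 (Atp6v1b2 and Grn), and no other count changed. The cause of these changes was not tested. Over all its alternatives Grn in agomelatine against stress had an adjusted p of 0.00239 to 0.0519. Over all genes, where agomelatine against stress called 1163, alternatives called 163 (only the compared groups fitted) to 1957 (adjusted p under 0.1), and where agomelatine against control called 1036, they called 278 (without control 2) to 1864 (first arrays alone). The sign of Tfeb in tianeptine against stress turned to 0.0065 with equal array medians. The counts of lysosomal genes called in imipramine against stress, fluoxetine against stress, tianeptine against stress, imipramine against tianeptine and imipramine against control stayed at 0 under each of 32 alternatives, among them leaving out all agomelatine animals, which was chosen after seeing the data.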
